A study of Mus musculus with 2 samples.

Results

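The genes described here make and load MHC class I molecules in mouse macrophages: B2m, H2-K1, H2-D1, H2-Q4, H2-T23, Tap1, Tap2, Tapbp, Nlrc5 and Erap1. They were chosen by gene symbol, and all 10 were found among the 55536 annotated genes of the gene tables, together with their transcripts in the transcript tables. The cells were primary macrophages grown from bone marrow of C57BL/6J mice. Lipid A, the anchor of bacterial lipopolysaccharide and the ligand of Toll-like receptor 4, was given at 100 ng/ml for 12 h. It was then washed out, and after 12 h of rest the cells were exposed to 100 ng/ml again for 75 min. Total RNA of the cytosolic fraction, depleted of ribosomal RNA, was sequenced in 2 libraries of this 1 group, called replicate 1 and replicate 2. The libraries have their own biosample records but share a donor code in the labels, so the spread between them may be technical. Age and sex were not collected. No untreated library was analysed here, so the values are levels after this treatment and measure no response to lipid A.

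An MHC class I molecule shows short peptides from inside the cell to CD8 T cells and to natural killer cells. A heavy chain pairs with beta-2-microglobulin in the endoplasmic reticulum. The transporter TAP brings in peptides made by the proteasome, tapasin holds the empty molecule at the transporter, and aminopeptidases trim the peptides to length. Interferons and NF-kB raise transcription of the pathway, and NLRC5 is a transactivator that acts at class I promoters. Nearly all nucleated cells carry class I molecules, and macrophages raise them when activated.

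The classical heavy chains are near copies, and the sequences of H2-K1 and H2-D1 show how much of each a short read can tell apart. Their coding sequences, in transcripts H2-K1-201 and H2-D1-202, were identical at 985 of 1077 aligned bases, or 91.5%. The 60 coding bases in which they differ most are shown here, with the 15 differing bases in capitals. They run from coding base 492 to 551 of H2-K1 and from 501 to 560 of H2-D1, counted from 1 at the start codon.
H2-K1: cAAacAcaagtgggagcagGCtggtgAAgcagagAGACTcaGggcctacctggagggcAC
H2-D1: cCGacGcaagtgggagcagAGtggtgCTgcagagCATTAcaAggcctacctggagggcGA
Their longest coding stretch with no difference covered 91 bases, from coding base 738 to 828 of H2-K1, and a read inside it fits both genes equally.
Shared by H2-K1 and H2-D1: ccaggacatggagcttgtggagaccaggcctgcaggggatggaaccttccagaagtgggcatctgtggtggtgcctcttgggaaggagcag

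Over whole transcripts, 23.3% of the 31-base windows of H2-K1-201 also occurred, on either strand, in a transcript of another gene. The share was 27.7% for H2-D1-202, 58.4% for H2-Q4-201 and 49.3% for H2-T23-201, whereas B2m-201 shared none and Nlrc5-207 0.172%. Coding identity was 90.2% between H2-K1 and H2-Q4, 90.4% between H2-D1 and H2-Q4, and 82.8% between H2-K1 and H2-T23. The values of all 4 heavy chains are uncertain to the extent that shared reads had to be divided, with the largest shares in H2-Q4 and H2-T23. The quantifier's own posterior SD of the gene counts was small, at most 7.25 counts for these 4, beside 23817 to 270481 expected counts.

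In RefSeq promoters (GRCm38.p6), the 250 bases before the start site were searched on both strands for 4 elements, which were chosen with the sequences in view: the NF-kB site, an IRF element (AANNGAAA), an X2-like element (TGNTGACG) and the CCAAT box (CCAAT). Windows were available for 8 of the 10 genes, all but Tap2 and Nlrc5. The printed stretches run from the upstream element to a CCAAT box, with matches to the 4 elements in capitals, and adjoining capitals belong to overlapping matches.
H2-K1, chr17:34000355-34000462, minus strand: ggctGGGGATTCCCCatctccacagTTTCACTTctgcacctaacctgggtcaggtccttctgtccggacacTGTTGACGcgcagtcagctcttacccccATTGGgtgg
H2-D1, chr17:35262919-35263026, plus strand: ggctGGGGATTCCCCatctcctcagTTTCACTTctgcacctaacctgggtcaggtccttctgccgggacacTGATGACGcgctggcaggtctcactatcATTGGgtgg
H2-Q4, chr17:35379439-35379546, plus strand: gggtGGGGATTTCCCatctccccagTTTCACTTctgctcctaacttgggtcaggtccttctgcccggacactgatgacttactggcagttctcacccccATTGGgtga
B2m, chr2:122147546-122147642, plus strand: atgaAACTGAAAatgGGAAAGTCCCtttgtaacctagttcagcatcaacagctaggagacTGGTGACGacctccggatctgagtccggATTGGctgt

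In H2-K1 and H2-D1 the 4 elements came in the order NF-kB, IRF, X2-like and CCAAT, and in B2m the IRF element preceded the NF-kB site. H2-Q4 held the same order as H2-K1 without the letters of the X2-like element. H2-T23 held the IRF element and the CCAAT box, Tap1 and Tapbp held only the CCAAT box, and Erap1 held none of the 4 in its window. Among 27025 genes with a promoter in the table, 8.23% held the NF-kB site, 23.9% the IRF element, 2.11% the X2-like element and 37.5% the CCAAT box. All 4 occurred in 7 genes, which were B2m, H2-K1, H2-D1, the class I genes H2-Q7 and H2-M3, the class II gene H2-Aa, and Wdr59. The H2-D1 stretch lies inside that gene as annotated in GENCODE M21, which starts at chr17:35262730, since the RefSeq start used lies further downstream. A match is a match of letters and was not measured as a binding site.

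The libraries held 64187219 and 49429864 rounded expected counts in replicates 1 and 2. Of the preset macrophage markers, 10 of 10 were detected, with summed levels of 5174 and 5835 TPM in replicates 1 and 2. TPM is a transcript share scaled to the same total in each library and corrected for length, and detected means at least 1 TPM in both libraries. Summed markers of 7 other lineages lay between 0.01 and 16.7 TPM in either library, led by Cd4 at up to 16.7 TPM. Among those, the B cell genes summed to 1.07 and 1.86 TPM and the dendritic cell genes to 0.23 and 0.42 TPM in replicates 1 and 2, so genes that mark other presenting cells were near 0. Neutrophil genes summed to 5.48 and 11.8 TPM and T and NK cell genes to 16.7 and 14.2 TPM in replicates 1 and 2. In bulk RNA, fewer cells of a type and less RNA per cell cannot be told apart.

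All 10 genes were detected, against 16.7% of all annotated genes and 40% of protein-coding genes. At a level of at least 100 TPM in both libraries stood 6 of the 10, which were B2m and the 4 heavy chains with Tapbp, against 0.727% of all genes and 1.75% of protein-coding genes. The other 4, Tap1, Tap2, Nlrc5 and Erap1, were between 10 and 100 TPM. The 10 genes held 2.52% and 3.03% of the TPM of protein-coding genes in replicates 1 and 2.

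B2m (ENSMUSG00000060802.8, chr2:122147686-122153083, plus strand in mm10) encodes the invariant light chain that all class I molecules share. Its level was 3719.9 TPM in replicate 1 and 3062 TPM in replicate 2, or 3391 ± 465 TPM (SD, n = 2). Of all protein-coding genes it ranked 6 by mean TPM. It is the only one of the 10 whose annotation holds 1 transcript, and the only one with a higher level in replicate 1 in the gene tables.

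H2-K1 (ENSMUSG00000061232.16, chr17:33996017-34000347, minus strand) and H2-D1 (ENSMUSG00000073411.11, chr17:35262730-35267499, plus strand) encode the classical heavy chains of this strain, the main peptide-presenting chains. H2-K1 was at 1832 TPM in replicate 1 and 2314 TPM in replicate 2, or 2073 ± 341 TPM (SD, n = 2). H2-D1 was at 1279 TPM in replicate 1 and 1631 TPM in replicate 2, or 1455 ± 249 TPM (SD, n = 2). They ranked 11 and 13 among protein-coding genes, and in each library H2-K1 was above H2-D1, and their ranges did not overlap.

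H2-T23 (ENSMUSG00000067212.8, chr17:36029773-36032855, minus strand) encodes Qa-1, a nonclassical chain that presents leader peptides of other class I chains to natural killer cell receptors, and H2-Q4 (ENSMUSG00000035929.11, chr17:35379617-35385290, plus strand) encodes a chain of the Q region. H2-T23 was at 230.4 TPM in replicate 1 and 280.5 TPM in replicate 2, or 255 ± 35.4 TPM (SD, n = 2). H2-Q4 was at 132 TPM in replicate 1 and 188 TPM in replicate 2, or 159.9 ± 39.8 TPM (SD, n = 2). Both lay well under the classical chains in either library. Over the 26 class I heavy chain genes named H2 that were listed, these 4 held 89.8% and 90.7% of the summed TPM in replicates 1 and 2, and H2-K1 with H2-D1 held 80.4% and 81.1%.

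Tap1 (ENSMUSG00000037321.17, chr17:34187553-34197225, plus strand) and Tap2 (ENSMUSG00000024339.12, chr17:34203527-34216321, plus strand) encode the subunits of the peptide transporter. Tap1 was at 58.7 TPM in replicate 1 and 90.4 TPM in replicate 2, or 74.5 ± 22.4 TPM (SD, n = 2). Tap2 was at 21.4 TPM in replicate 1 and 32.5 TPM in replicate 2, or 26.9 ± 7.79 TPM (SD, n = 2). The Tap1 level was 2.74 times that of Tap2 in replicate 1 and 2.78 times in replicate 2. Tapbp (ENSMUSG00000024308.15, chr17:33915899-33929292, plus strand), the gene of tapasin, was at 223 TPM in replicate 1 and 313 TPM in replicate 2, or 268 ± 63.8 TPM (SD, n = 2). The bridging protein of the loading complex thus had a higher mRNA level than either transporter subunit in each library.

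Erap1 (ENSMUSG00000021583.7, chr13:74639568-74693201, plus strand), the aminopeptidase of the endoplasmic reticulum that trims peptides, was at 14.6 TPM in replicate 1 and 20.1 TPM in replicate 2, or 17.4 ± 3.86 TPM (SD, n = 2). Nlrc5 (ENSMUSG00000074151.13, chr8:94434356-94527272, plus strand), the class I transactivator, was at 18.9 TPM in replicate 1 and 25.7 TPM in replicate 2, or 22.3 ± 4.82 TPM (SD, n = 2). By mean TPM of the gene tables the order was B2m, H2-K1, H2-D1, Tapbp, H2-T23, H2-Q4, Tap1, Tap2, Nlrc5 and Erap1. Neighbours whose ranges over the libraries overlapped were Tapbp and H2-T23, whose order differed between the libraries, Tap2 and Nlrc5, and Nlrc5 and Erap1. In the read-based table all 10 levels were lower, for example 1782 ± 595 TPM for B2m (SD, n = 2), and Erap1 stood above Nlrc5 in each library, at 10.25 against 8.8 TPM in replicate 1 and 10.31 against 8.75 TPM in replicate 2. Rescaled to protein-coding genes, B2m was at 12054 ± 534 TPM (SD, n = 2), with the 10 genes in the same order as before rescaling. On that scale B2m was at 12431 and 11676 TPM, and H2-K1 at 6121 and 8825 TPM, in replicates 1 and 2. In proportion, the libraries were thus closer for B2m and further apart for H2-K1 than in deposited TPM. The printed SDs therefore depend on the scale.

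**Figure D1:**
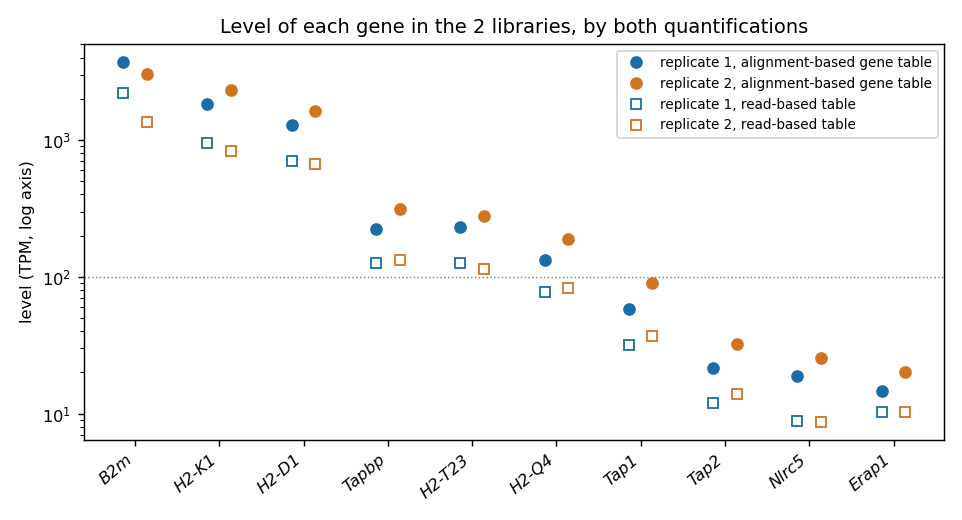
Level of each of the 10 genes on a log axis in TPM, with replicate 1 left of replicate 2; filled circles are the gene tables, open squares the read-based transcript tables summed per gene, and the dotted line marks 100 TPM. B2m, H2-K1 and H2-D1 lie above 1000 TPM in the gene tables, the next 3 genes between 132 and 313 TPM, and the last 4 below 100 TPM.

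The genes near this pathway, in lists of other class I genes, loading factors, peptidases and regulators, were set beside the 10. Of 28 other class I heavy chain and class I-like genes, 11 were detected and 14 were listed at 0 in both libraries. That share detected is close to the 40% of all protein-coding genes. The highest was H2-T22 at 194 ± 2.47 TPM (SD, n = 2), followed by H2-Q7 at 68.9 ± 19.4 TPM and H2-Q6 at 63.7 ± 12.7 TPM. H2-T24 averaged 47.1 ± 4.96 TPM, and H2-M3, which presents formylated peptides, 32.1 ± 3.28 TPM.

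All 7 other loading factors were detected. Calr, the chaperone calreticulin, averaged 177 ± 35 TPM (SD, n = 2), Canx, calnexin, 95.6 ± 14.6 TPM, and Pdia3, the disulfide isomerase that binds tapasin, 77.9 ± 11.6 TPM. At the low end, Tapbpl, a peptide editor related to tapasin, averaged 12.5 ± 0.742 TPM, and Uggt1, the glucosyltransferase that returns unloaded molecules to calreticulin, 5.29 ± 1.31 TPM. Calreticulin mRNA therefore stood below that of Tapbp in each library, with 153 against 223 TPM in replicate 1 and 202 against 313 TPM in replicate 2.

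The 3 catalytic subunits of the immunoproteasome, which makes many class I peptides, were all detected. Psmb8 averaged 154 ± 6.45 TPM (SD, n = 2), Psmb10 129.9 ± 0.552 TPM and Psmb9 52.9 ± 5.33 TPM. The activator genes Psme2 and Psme1 averaged 199 ± 1.74 and 131 ± 3.15 TPM, and the assembly factor gene Pomp 80.7 ± 14.5 TPM. Among 7 other aminopeptidases, all detected, Lnpep, which trims peptides in endosomes, had the highest level at 22.1 ± 4.47 TPM and Thop1 the lowest at 1.72 ± 0.17 TPM. Erap1 was second to Lnpep in this list by mean TPM, and the ranges of these 2 over the libraries overlapped.

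Of 14 other regulators of class I transcription, all were detected. Irf1, an interferon-responsive factor, averaged 249.7 ± 36.4 TPM (SD, n = 2). Nfkb1 and Rela, subunits of NF-kB, averaged 31 ± 2.62 and 29 ± 6.93 TPM. Ciita, the class II counterpart of Nlrc5, was lowest at 1.39 ± 0.0636 TPM. Nlrc5 was above Ciita in each library, at 18.9 against 1.34 TPM in replicate 1 and 25.7 against 1.43 TPM in replicate 2. The genes of a surface pathway that removes class I molecules, Susd6, Tmem127 and Wwp2, averaged 55 ± 8.83, 16 ± 0.127 and 12.8 ± 0.0707 TPM.

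Between the libraries the 10 genes did not keep a fixed proportion. B2m was higher in replicate 1 and the other 9 were lower there. The comparison used rounded expected counts scaled by TMM, over 13298 genes with a mean count of at least 10. It has 1 library on each side and gives no p-value, and the 95% intervals (exact, Clopper-Pearson) cover counting error only. For B2m the expected counts were 266813 in replicate 1 and 177910 in replicate 2, a log2 ratio of 0.21 (0.20 to 0.22). For Tap1 they were 16848 in replicate 1 and 21238 in replicate 2, a log2 ratio of -0.71 (-0.74 to -0.68). The Tap2 counts were 6030 in replicate 1 and 7570 in replicate 2, with the same log2 ratio of -0.71 (-0.75 to -0.66).

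At a fold of at least 1.5, 4 of the 10 genes were lower in replicate 1, against 8.43% of all genes compared and 3.01% of genes at 10 TPM or more in both libraries. These were Tap1, Tap2, H2-Q4 at -0.60 (-0.63 to -0.58) and Erap1 at -0.59 (-0.63 to -0.54), and the intervals of the last 2 include the threshold. None of the 10 was 1.5-fold higher, against 8.84% of all genes and 4.67% of genes at 10 TPM or more. Just short of the threshold lay Tapbp and Nlrc5, both at -0.58. H2-K1 had a log2 ratio of -0.53, H2-D1 -0.44 and H2-T23 -0.37. The median log2 ratio of the 10 genes was -0.58, beside 0.04 over all genes compared, and 9 of 10 were lower in replicate 1 at any fold, beside 45.7% of all genes.

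**Figure D2:**
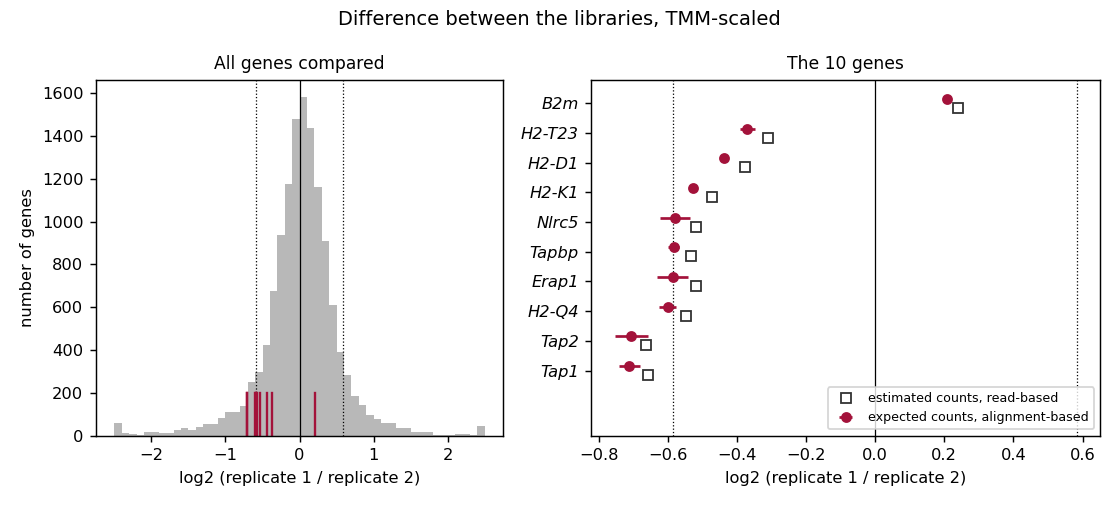
Left, number of genes by log2 ratio of replicate 1 over replicate 2 (TMM-scaled expected counts; values beyond 2.5 are stacked in the end bins), with red ticks for the 10 genes. Right, the same ratio for each gene with its 95% counting interval, and open squares from read-based counts; dotted lines mark a fold of 1.5, and B2m at 0.21 lies right of 0 while the other 9 lie left of it.

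The direction held in the read-based counts, where B2m was at 0.24 and the other 9 genes were between -0.66 and -0.31, beside 44.6% of all genes that were lower there at any fold. In the read-based TPM, whose median over all genes was 0.51, the median of the 10 genes was 0.00, with 5 genes on either side of 0. Relative to that shift of all genes, the 10 genes were again lower in replicate 1, other than B2m at 0.69. The count of genes past 1.5-fold was 2 with deposited TPM, 2 with read-based counts and 6 with DESeq2 size factors. All of these were lower in replicate 1. With read-based counts, 11.3% of all genes were at least 1.5-fold lower. For TPM and DESeq2 size factors the share of all genes was not computed.

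Related genes moved by different amounts. All 7 other loading factors were lower in replicate 1, with a median log2 ratio of -0.40 and none 1.5-fold apart. Of 12 other class I genes compared, 11 were lower, with a median of -0.31, and 2 were at least 1.5-fold lower. These were H2-Q7 at -0.64 and H2-Q10, which had only 28.4 counts in replicate 1 and 38.8 in replicate 2 and is named for its ratio after it was seen. H2-T22, whose neighbour H2-T23 was at -0.37, was at -0.06. Outside class I, 7 of 8 class II genes compared were lower as well, with a median of -0.34 and none 1.5-fold apart, among them H2-Ab1 at -0.49 and H2-Aa at -0.48. The 6 immunoproteasome and activator genes had a median of -0.05, and the 14 other regulators of class I transcription 0.08. Psmb9, which starts beside Tap1 on the opposite strand and overlaps it by 212 bases, had 56.7 TPM in replicate 1 and 49.1 TPM in replicate 2, a log2 ratio of 0.04, whereas Tap1 was at -0.71.

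RNAs that normally stay in the nucleus also differed between the libraries. Malat1 was at 132 TPM in replicate 1 and 384 TPM in replicate 2, and Neat1 at 7.96 and 29.7 TPM, with log2 ratios of -1.66 and -1.77. Gene length moved with the ratio as well. Among genes at 10 TPM or more in both libraries, the median log2 ratio was 0.32 for 598 genes shorter than 1000 bases, 0.14 from 1000 to 2000 bases, 0.04 from 2000 to 3000 bases, -0.03 from 3000 to 5000 bases and -0.15 for 302 longer genes. B2m, with 860 bases, is the shortest of the 10, and its 0.21 is below the median of its length class. The other 9, with mean deposited lengths of 983 to 5081 bases, were all below the median of theirs. What part nuclear RNA or length has in the differences was not tested.

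The libraries disagreed on whether B2m or the summed heavy chains H2-K1, H2-D1, H2-Q4 and H2-T23 had the higher level. B2m had 1.07 times the summed heavy chain TPM in replicate 1 and 0.694 times in replicate 2. On the log2 scale this was 0.10 and -0.53, or -0.21 ± 0.44 (SD, n = 2), which spans 0.

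The transcript tables changed the order of the classical chains. In the gene tables H2-K1 exceeded H2-D1 by a log2 ratio of 0.52 in replicate 1 and 0.50 in replicate 2, or 0.51 ± 0.01 (SD, n = 2). Of the H2-K1 TPM, however, 53.3% in replicate 1 and 48.7% in replicate 2 was assigned to H2-K1-215, an annotated retained-intron transcript of 457 bases at the 3′ end of the gene (chr17:33996106-33996674, 2 exons). Counting only protein-coding transcripts, H2-K1 was at 821 TPM in replicate 1 and 1155 TPM in replicate 2, while H2-D1 stayed at 1277 and 1628 TPM. The log2 ratio of H2-K1 to H2-D1 then turned to -0.64 in replicate 1 and -0.50 in replicate 2, and to -0.51 and -0.37 in the read-based table. This choice of transcripts was made after seeing the data.

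H2-K1-215 is nearly all made of sequence that the coding transcript H2-K1-201 also holds. Of its 457 bases, 369 lie in the stop codon and the 3′ untranslated region, 68 in coding exons before the stop codon and 20 in the intron just upstream. Its start is shown because these 20 bases, in capitals, are the only ones absent from H2-K1-201; the 10 bases after them are exonic.
H2-K1-215 start, chr17:33996655-33996674 for the capitals, minus strand: TTTGTTTTGTTTTACCCTAGgctcccagac
By expected counts, H2-K1-215 held 17.3% of the gene in replicate 1 and 14.2% in replicate 2, since TPM divides counts by a short effective length. The quantifier's posterior SD was 126 and 138 counts for H2-K1-215 and 423 and 459 counts for H2-K1-201 in replicates 1 and 2, against 0.61 and 0.39 counts for the gene as a whole. The read-based table gave H2-K1-215 47.3% and 36.7% of the gene's TPM in replicates 1 and 2 and H2-K1-201 38.1% and 49.3%, so the leading transcript there differed between the libraries.

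Tap2 was led by a retained-intron transcript in both tables. Tap2-202 (chr17:34204567-34216318, 11 exons, 2561 bases) held 78.1% of Tap2 TPM in replicate 1 and 75.8% in replicate 2, and 75.2% and 72.1% in the read-based table. The protein-coding Tap2-201 (12 exons, 3442 bases) held 21% and 23.6% in replicates 1 and 2. By expected counts Tap2-202 held 73% in replicate 1 and 69.9% in replicate 2, so here counts and TPM gave like shares. Tap2-202 differs from Tap2-201 by 162 added bases, an intron kept between coding exons, and lacks 1043 bases of it, nearly all in the 5′ untranslated exon. The kept intron is shown because no other Tap2 transcript holds it, with its GT and AG ends in capitals.
Tap2-202 kept intron, chr17:34212068-34212229, plus strand: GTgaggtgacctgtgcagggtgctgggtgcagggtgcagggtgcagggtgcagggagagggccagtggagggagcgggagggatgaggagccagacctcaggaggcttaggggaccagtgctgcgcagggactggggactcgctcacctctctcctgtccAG
A noncoding gene on the opposite strand, Gm15821, spans this intron and was at 0.03 and 0.01 TPM in replicates 1 and 2. Strandedness of the counting is not given in the sources used here, so reads of the strands may not be separated. The 2 transcripts share 2399 bases, so their split rests on the bases that only 1 of them holds. Reads over the intron or over the 5′ bases were not examined, so the share of Tap2 mRNA that keeps the intron was not measured directly. With protein-coding transcripts alone, and thus dependent on this split, Tap2 was at 4.69 TPM in replicate 1 and 7.85 TPM in replicate 2. Tap1 then exceeded Tap2 by a log2 ratio of 3.63 in replicate 1 and 3.50 in replicate 2, against 1.45 and 1.48 with all transcripts.

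**Figure D3:**
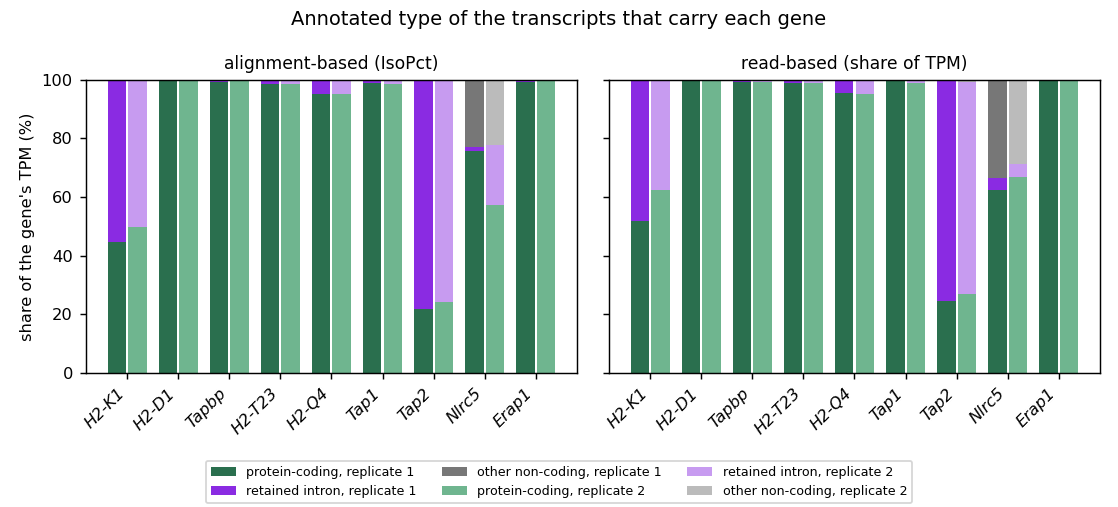
Share of each gene's TPM, in percent, by annotated transcript type, with replicate 1 (dark) left of replicate 2 (light), for the 9 genes with more than 1 transcript; left the alignment-based table, right the read-based table. Retained-intron transcripts hold most of Tap2 in both tables and 55.1% and 50.1% of H2-K1 in replicates 1 and 2 of the alignment-based table.

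Of the 9 genes with more than 1 annotated transcript, 2 were led by a retained-intron transcript in the alignment-based table, against 1.65% of detected protein-coding genes with several transcripts, and 1, Tap2, in the read-based table by the mean of both libraries, against 1.75%. In replicate 1 of the read-based table H2-K1 was also led by H2-K1-215. Leading transcripts of H2-D1, H2-Q4 and H2-T23 were protein-coding and held over 95% of the gene in both tables. H2-D1-202 held 95.6% in each library, H2-Q4-201 95.2% and 95%, and H2-T23-201 98.7% and 98.5% in replicates 1 and 2. The split between transcripts thus left the values of these 3 heavy chains nearly unchanged.

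In the alignment-based table, Nlrc5 was the gene whose transcript shares moved most between the libraries. The full-length coding Nlrc5-207 (53 exons, 7578 bases) held 40.6% and 41.7% of the TPM in replicates 1 and 2. Nlrc5-202, a 3′ fragment annotated as coding, held 32.2% in replicate 1 and 11.7% in replicate 2, and Nlrc5-203, a retained-intron transcript at the same place, 0.25% and 18.9%. Nlrc5-203 holds all 1721 bases of Nlrc5-202 and 6 more, and together they held 32.5% and 30.6% in replicates 1 and 2. In the read-based table their sum was 3.64% and 3.47%, and Nlrc5-207 held 62.3% and 66.6%. By expected counts Nlrc5-207 held 80.3% in replicate 1 and 80.1% in replicate 2. The noncoding Nlrc5-209, of 346 bases, held 16.8% and 15.3% of the TPM on 46.6 and 44.6 expected counts. With protein-coding transcripts alone, Nlrc5 was at 14.3 TPM in replicate 1 and 14.7 TPM in replicate 2. By the mean of such transcripts, the order of the last 3 genes turned to Erap1 at 17.3 TPM, Nlrc5 at 14.5 TPM and Tap2 at 6.27 TPM. Erap1 was then at 14.54 TPM in replicate 1 and 19.97 TPM in replicate 2, a range that overlapped that of Nlrc5. The coding value of Nlrc5 includes Nlrc5-202 but not the near-identical Nlrc5-203, so it rests on how reads were split between them. For Nlrc5-202 the posterior SD was 290 and 210 counts, beside 1025 and 415 expected counts in replicates 1 and 2.

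Tap1, Tapbp and Erap1 were carried by coding transcripts. Tap1-206 held 61% and 63.5% of Tap1 TPM in replicates 1 and 2, and 83.5% and 86.7% in the read-based table, with Tap1-201, another coding transcript, taking most of the rest. Tapbp-206 held 88.8% and 89.1% in replicates 1 and 2. Erap1-201 held 87.8% and 90.2%, and 72.6% and 76.5% in the read-based table. Erap1-201 shares its last 834 bases with Cast, a gene on the opposite strand at 20.3 TPM in replicate 1 and 16 TPM in replicate 2, so the Erap1 value is uncertain over 14.3% of its 31-base windows.

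**Figure D4:**
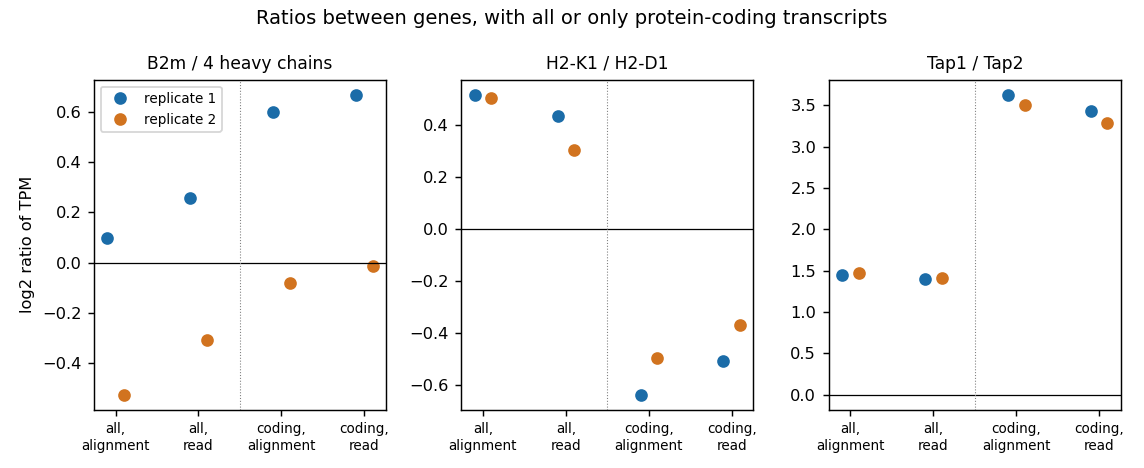
Log2 ratio of TPM between genes in replicate 1 (blue) and replicate 2 (orange), with all transcripts or only protein-coding transcripts, in the alignment-based and read-based tables. H2-K1 over H2-D1 lies between 0.31 and 0.52 with all transcripts and between -0.64 and -0.37 with coding transcripts, and Tap1 over Tap2 lies at least at 3.28 with coding transcripts.

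With coding transcripts only, B2m exceeded the summed heavy chains by a log2 ratio of 0.60 in replicate 1 and was below them, at -0.08, in replicate 2. The read-based coding values were 0.67 in replicate 1 and -0.01 in replicate 2. Of the 3 ratios, that of H2-K1 to H2-D1 changed its sign in both libraries with the transcripts counted, and that of Tap1 to Tap2 kept it.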

How the data were processed

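The authors deposited expected counts (estimated, not scaled by depth), TPM, FPKM, each transcript's percent of its gene and a posterior SD of the count (a score) in alignment-based tables, and estimated counts and TPM in a read-based transcript table, per the file headers. The mm10 assembly and GENCODE M21 are named in the text deposited beside the tables; for the aligner, quantifiers and strandedness the sources used here give no name. TPM corrects for effective length, which raises short transcripts. FPKM and the deposited intervals were not used for results.

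Levels are gene TPM as deposited. Read-based values were summed per gene (86 genes had no row). Between libraries, expected counts were rounded and scaled by TMM (edgeR 4.0.16, R 4.3.3) over annotated genes only; DESeq2 1.42.0 size factors were an alternative. Genes past a fold of 1.5 were called, at a mean count of at least 10. The calling step was run on simulated counts with counting error only. That run cannot tell how often real libraries differ by this fold. Depth limits low genes most, and intervals cover counting error. With 1 group, nothing was tested.

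The members and lists were chosen with earlier results of these data known. All 10 members are named, and from other lists at most the 5 highest and the 2 lowest genes by mean TPM, plus every immunoproteasome subunit; no likeness of pattern was measured. Not every gene this allows is reported here. Alternatives covered table, scaling, pseudocount, filter, fold and leaving out each replicate. Sequences come from GENCODE M21 transcripts and RefSeq promoters (Biopython 1.88).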

Additional observations from a re-analysis of the deposited data

How the results depend on the processing

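Of 43 alternatives to values that answer a comparison, 26 stayed within a set limit. The limit was the spread between replicates for ratios between genes and 1.5 times for counts of genes. For the median absolute log2 ratio between the libraries it was the counting error. Some of the 26 could not have moved. With 2 libraries, a ratio from 1 of them always lies within the SD of their mean. Dropping the count filter or lowering the minimum for detection could not change the values of these 10 genes either. All 10 genes were detected under every table, scale and minimum tried, and 5 to 7 were at 100 TPM or more. Shares over all annotated genes were computed only for deposited TPM in both libraries, with 16.7% detected and 0.727% at 100 TPM or more. On the read-based and rescaled scales the same minimum of 100 TPM may admit another share of all genes. The log2 ratio of H2-K1 to H2-D1 (0.51) was 0.37 in the read-based table and reversed with protein-coding transcripts only, to -0.57, and -0.44 read-based, which rests on the share given to H2-K1-215. That of Tap1 to Tap2 (1.46) was 1.41 read-based, 1.43 with 1 added to TPM, and 3.57 and 3.35 with coding transcripts in the alignment-based and read-based tables. That of B2m to the heavy chains (-0.21) was 0.26 and 0.33 with coding transcripts, and ranged from -0.53 to 0.10 when either replicate was left out. The count of 4 genes 1.5-fold apart, all lower in replicate 1, was 2 with deposited TPM, 2 with read-based counts, 1 with 1 added to TPM and 0 at a fold of 2. With read-based TPM it was 1, which was B2m, higher in replicate 1, and none of the 4 was past the fold. Over all genes, the share at least 1.5-fold lower was 8.43% in the main comparison and 11.3% with read-based counts. No such share was computed for the other settings. The median absolute log2 ratio between the libraries (0.58) was 0.45 with TPM, 0.52 with read-based counts and 0.43 with 1 added. Except where named, the causes were not tested. No paired analysis was possible because there is 1 group. Alternatives with coding transcripts, and the count of genes 1.5-fold apart by read-based TPM, were chosen after seeing the data. With 2 libraries the SD is itself poorly known.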
